A study of Mus musculus with 6 samples.

Results

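Genes of iron and heme handling were followed in tetraploid and diploid mouse hepatocytes, as every probe set whose platform annotation gives exactly 1 gene symbol equal to a gene on a list of 10. The list holds Hamp, Trf, Tfrc, Tfr2, Slc40a1, Hfe, Hfe2, Fth1, Cp and Alas1. The rule found 25 of 22690 probe sets, which measured 8 of the 10 genes. The single probe set annotated to Trf also carries the symbol Srprb and was therefore not a member. The annotation names no probe set for Hfe2, whose current symbol is Hjv. The hepatocytes came from wild-type C57BL/6 mice aged 3 weeks. They had been stained with the DNA dye Hoechst 33342 after fresh isolation and sorted by flow cytometry, and RNA was extracted immediately afterwards. There were 3 arrays of tetraploid cells, which carry a duplicated chromosome complement, and 3 arrays of diploid cells, which carry the usual complement. Both fractions share strain, age and tissue. Cells were assigned by DNA content, so diploid cells in G2 or mitosis can lie in the tetraploid fraction. The labels call the replicates biological and name no separate animals. The tests therefore weigh differences against the variation among these arrays alone, part of which may be technical.

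Hepatocytes are the main source of hepcidin, the hormone encoded by Hamp that blocks iron export from cells into plasma. Its transcription is raised by BMP ligands from neighbouring cells, acting with the co-receptor hemojuvelin (the product of Hfe2) through SMAD proteins, and by interleukin-6 through STAT3. Hfe and transferrin receptor 2 inform the hepatocyte of the iron loading of transferrin. Hepatocytes also store iron in ferritin, secrete transferrin and the ferroxidase ceruloplasmin, and make heme for their cytochromes, with Alas1 as the rate-limiting step.

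The bases upstream of the hepcidin gene carry the elements through which these signals are known to act, and they are shown with those of the neighbouring paralog Hamp2 because Hamp is the member that follows these signals. Both stretches lie on the minus strand of assembly GRCm38.p6 and were taken from RefSeq, at chr7:30944030-30944279 for Hamp and chr7:30924182-30924431 for Hamp2. Capitals mark exact matches, searched on both strands, to the BMP-responsive element GGCGCC and the STAT3 element TTCTTGGAA, which do not overlap.
Hamp: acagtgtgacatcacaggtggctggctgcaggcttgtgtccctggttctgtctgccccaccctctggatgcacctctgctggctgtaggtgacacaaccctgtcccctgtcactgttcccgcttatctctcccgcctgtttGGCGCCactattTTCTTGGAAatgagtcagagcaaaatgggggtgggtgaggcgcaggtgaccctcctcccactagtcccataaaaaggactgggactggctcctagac
Hamp2: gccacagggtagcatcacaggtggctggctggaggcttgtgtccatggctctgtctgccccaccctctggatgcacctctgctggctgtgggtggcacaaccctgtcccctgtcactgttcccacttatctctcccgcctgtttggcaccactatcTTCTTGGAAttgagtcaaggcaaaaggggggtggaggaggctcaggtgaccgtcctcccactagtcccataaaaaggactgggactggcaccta
In the Hamp stretch the BMP-responsive letters begin 109 bases and the STAT3 letters 97 bases before the annotated start. The Hamp2 stretch holds the STAT3 letters, 94 bases before its start, and not the letters GGCGCC. Of the 32851 upstream windows of 250 bases in the RefSeq table, 9.59% held GGCGCC, 0.365% held TTCTTGGAA and 3 windows held both. Over the 247 bases that could be aligned without gaps, 91.9% were identical between Hamp and Hamp2. A match describes the letters only. This identity concerns upstream bases, and no transcript or probe sequences were compared. Whether Hamp2 transcripts bind the same probes was not tested, so the hepcidin values below are uncertain as to the copy.

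The labelled cell type was checked against its markers and those of other liver cells. The 16 hepatocyte genes measured of 18 listed had mean log2 intensities of at least 12.67. Of Kupffer cell and macrophage markers, which belong to cells that express Slc40a1 strongly, 17 of 18 were measured, and none had a mean above 6.82, with 3 below 4.82, the level under which the dimmest 25% of all probe sets fall. Their summed intensity lay between 668 and 762 on tetraploid arrays and between 718 and 789 on diploid arrays. Of erythroid markers, which belong to cells rich in Tfrc, 14 of 20 were measured, with summed intensities of 762 to 812 on tetraploid arrays and 775 to 810 on diploid arrays. Of these 14 genes 8 were below 4.82, and the highest mean was 7.49. Of liver endothelial markers, which belong to the cells that make BMP ligands, 17 of 17 were measured, and their summed intensity was 1607 to 1864 on tetraploid arrays and 1486 to 1655 on diploid arrays. The means of 3 were below 4.82, and the highest was 8.19. Levels of different probe sets cannot be compared directly, so these values do not give the share of any cell type. In bulk RNA, fewer cells of a type and less RNA per cell cannot be told apart.

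None of the member genes was called different between the ploidy fractions. By limma on log2 intensities with Benjamini-Hochberg adjustment over all 22626 probe sets without controls, 0 of the 22 member probe sets in that fit passed an adjusted p of 0.05, where the background was 0.0%. At an unadjusted p under 0.05 there were 0 members against 6.9% of all probe sets, 3.35% higher and 3.55% lower in tetraploid cells. The smallest adjusted p among the members was 0.762. Of the 22 probe sets 10 had a higher and 12 a lower mean in tetraploid cells. With the brightest probe set standing for each gene, 3 genes had a higher and 5 a lower mean, with a median log2 difference of -0.06, against -0.02 over all 12393 genes. The fractions did not overlap for 1 of the 22 probe sets, one of Cp, against 12.7% of all probe sets.

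**Figure D1:**
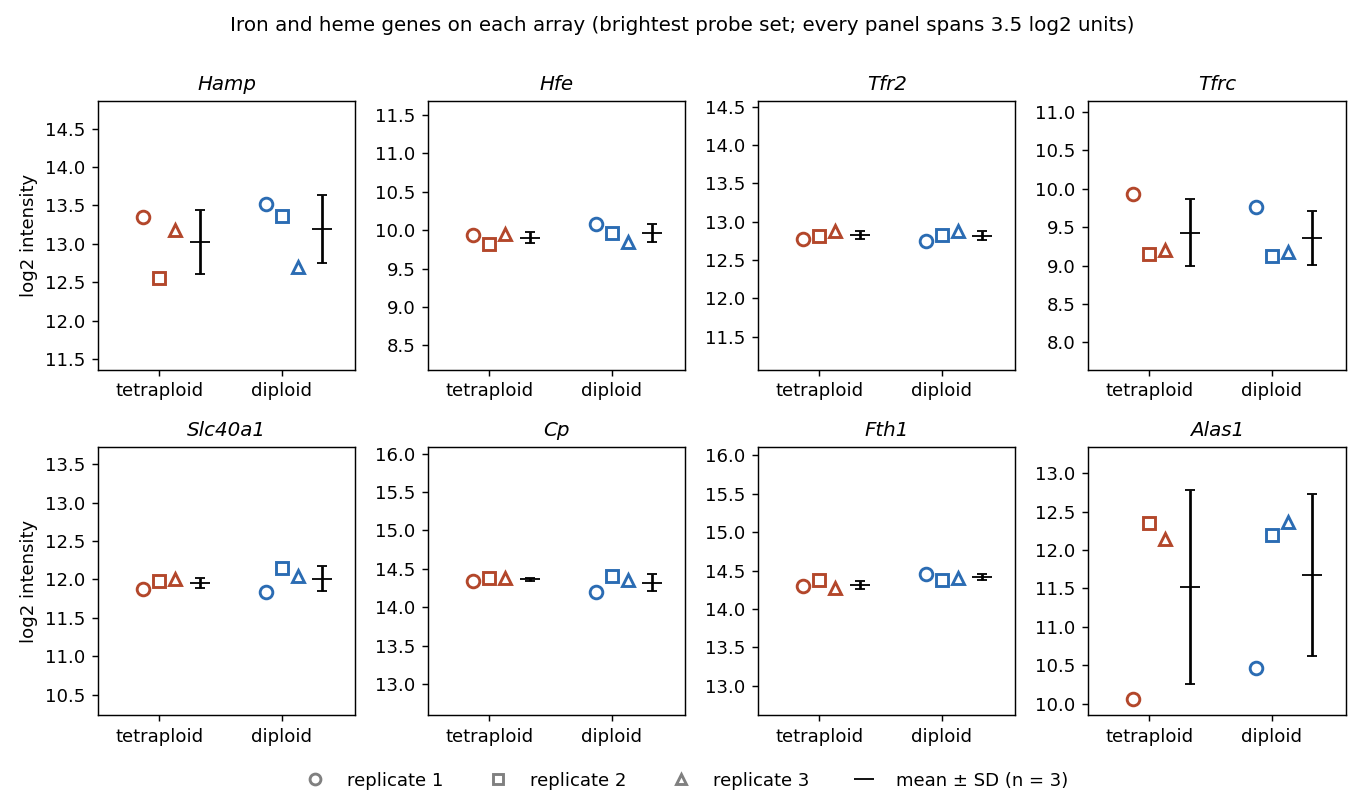
Log2 intensity of the brightest probe set of each member gene on each array, tetraploid arrays left and diploid arrays right, with symbols for the replicate number and the mean ± SD of 3 arrays. All panels span the same number of log2 units. Hamp, Tfrc and Alas1 are spread widely within both fractions, and the other 5 genes lie within a range of 0.32 over the 6 arrays.

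Hepcidin mRNA ranged about equally widely in both fractions. On the log2 scale the brighter Hamp probe set, 1419197_x_at, read 13.35, 12.55 and 13.18 on tetraploid replicates 1 to 3 and 13.52, 13.37 and 12.69 on diploid replicates 1 to 3. Tetraploid replicate 2 and diploid replicate 3 were the low arrays, 1.40-fold or more below every other array, and the fractions overlapped. The mean was 13.03 ± 0.42 in tetraploid and 13.19 ± 0.44 in diploid cells (SD, n = 3). The log2 difference was -0.17 ± 0.25 (SE), with a 95% interval from -0.75 to 0.42 and an adjusted p = 0.935 by limma. This interval allows a level in tetraploid cells between 0.596 and 1.33 times that in diploid cells. The second Hamp probe set picked out the same arrays as low and differed by -0.16 ± 0.28 (SE).

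The brightest probe sets of the proteins that sense iron-loaded transferrin varied little between arrays. Hfe, an MHC class I-like protein that binds both transferrin receptors, read 9.94, 9.82 and 9.95 on tetraploid and 10.08, 9.96 and 9.85 on diploid arrays (log2 intensity, probe set 1422645_at). Its log2 difference was -0.06 ± 0.09 (SE), with a 95% interval from -0.27 to 0.14 (limma, adjusted p = 0.932). The 3 tetraploid values lay inside the diploid range or just below it. The dimmer Hfe probe set differed by -0.02 ± 0.14 and ranged 1.42-fold over the 6 arrays, with an SD within fractions above that of 88.2% of probe sets. Tfr2, the hepatocyte transferrin receptor that takes part in hepcidin control, read 12.78, 12.81 and 12.88 on tetraploid and 12.76, 12.83 and 12.87 on diploid arrays (probe set 1459994_x_at). These values interleaved. The difference was 0.004 ± 0.077 (SE), with a 95% interval from -0.17 to 0.18, and the second Tfr2 probe set differed by -0.10 ± 0.08.

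Tfrc, the transferrin receptor that brings iron into most cell types, was highest on the arrays numbered 1 of both fractions. Its brightest probe set, 1452661_at, read 9.93, 9.15 and 9.20 on tetraploid and 9.77, 9.13 and 9.18 on diploid arrays (log2 intensity). The pair of arrays numbered 1 lay at least 1.48-fold above the other 4. The log2 difference between the fractions was 0.07 ± 0.24 (SE), with a 95% interval from -0.47 to 0.61 (limma, adjusted p = 0.972). With both arrays numbered 1 left out, a restriction chosen after seeing the values, it was 0.02 ± 0.09. A further 5 probe sets measured Tfrc. The intermediate pair had means of 5.92 and 4.81 and differed by 0.07 ± 0.08 and 0.10 ± 0.12, and did not set the arrays numbered 1 apart, the second lying below the dim level of 4.82. The other 3 are Affymetrix control probe sets for the 5′, middle and 3′ parts of the transcript, and were tested in an added fit that included controls. Their mean log2 intensities of 4.02, 4.30 and 4.50 lay below the same level, and their differences were 0.08 ± 0.10, 0.05 ± 0.07 and -0.02 ± 0.08.

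For the iron export genes, the brightest probe sets differed between the fractions by less than the SD within them. Slc40a1 encodes ferroportin, the iron exporter that hepcidin closes. It read 11.87, 11.97 and 12.00 on tetraploid and 11.83, 12.15 and 12.05 on diploid arrays (log2 intensity, probe set 1417061_at). The tetraploid values fell within the diploid range. Its log2 difference was -0.06 ± 0.10 (SE), with a 95% interval from -0.29 to 0.17 (limma, adjusted p = 0.939), and the other Slc40a1 probe set differed by 0.06 ± 0.11, in the opposite direction. Cp encodes ceruloplasmin, the copper enzyme of plasma that oxidises exported iron so that transferrin can take it up. Its brightest probe set, 1417494_a_at, read 14.34, 14.37 and 14.37 on tetraploid and 14.20, 14.41 and 14.35 on diploid arrays, a difference of 0.04 ± 0.08 (SE) with a 95% interval from -0.15 to 0.23.

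The 7 probe sets of Cp bear on how far a single one can be read. Of these, 4 had higher and 3 lower means in tetraploid cells, with differences from -0.08 to 0.18. The higher ones had mean log2 intensities from 12.61 to 14.34. Among the lower ones, 1417497_at and 1448735_at were dim, with means of 5.49 and 4.85. The remaining lower one, 1455393_at, had a mean of 12.97 and differed by -0.04 ± 0.08 (SE). The probe set with the largest difference, 1417496_at, is also the one whose fractions did not overlap. It read 12.61, 12.81 and 12.67 on tetraploid and 12.41, 12.61 and 12.53 on diploid arrays. The lowest tetraploid and the highest diploid value were equal to 2 decimals. Its difference was 0.18 ± 0.09 (SE), with an adjusted p = 0.762 by limma. It was named after its value was seen.

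**Figure D2:**
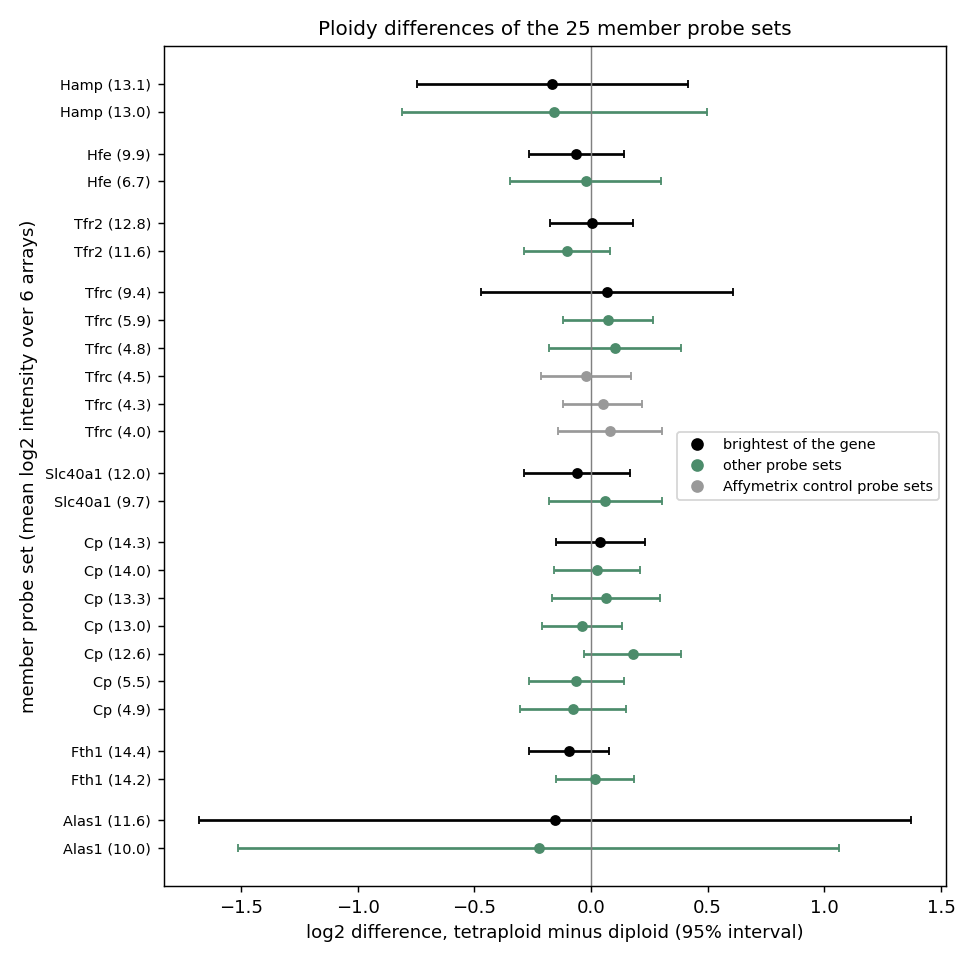
Log2 difference, tetraploid minus diploid, of each of the 25 member probe sets with its 95% interval from limma, grouped by gene, with the mean log2 intensity in brackets. All 25 intervals include 0, and those of Alas1, Hamp and the brightest Tfrc probe set are the widest.

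The ferritin heavy chain signal was nearly constant between arrays. Its probe sets are bright, with mean log2 intensities of 14.36 and 14.21, and whether signals this high follow the mRNA in full was not tested. Fth1, the ferroxidase subunit of the iron storage shell, read 14.31, 14.38 and 14.27 on tetraploid and 14.45, 14.37 and 14.41 on diploid arrays (log2 intensity, probe set 1427021_s_at). Tetraploid replicate 2 lay inside the diploid range, and the other tetraploid arrays were below all diploid ones. The log2 difference was -0.09 ± 0.08 (SE), with a 95% interval from -0.27 to 0.08 (limma, adjusted p = 0.860). The second Fth1 probe set differed by 0.02 ± 0.07, with a 95% interval from -0.15 to 0.18. The suffix of the first marks a probe set that can match several transcripts.

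Alas1, the enzyme that starts heme synthesis, had the widest spread of the members and was low on one array of each fraction. Its brightest probe set, 1424126_at, read 10.06, 12.35 and 12.14 on tetraploid and 10.46, 12.20 and 12.36 on diploid arrays (log2 intensity). Both arrays numbered 1 were low, at least 3.22-fold below each of the other 4. Within the tetraploid fraction the highest array was 4.89-fold above the lowest, and within the diploid fraction 3.75-fold. The second Alas1 probe set read 8.68, 10.60 and 10.46 on tetraploid and 9.11, 10.59 and 10.71 on diploid arrays, with the same arrays low and a difference of -0.22 ± 0.56 (SE). The difference between the fractions was -0.15 ± 0.67 (SE), with a 95% interval from -1.68 to 1.37 (limma, adjusted p = 0.980). Left without both arrays numbered 1, the fractions differed by -0.03 ± 0.12, a restriction chosen after the values were seen.

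The spread between arrays of the same fraction separated the members into groups. The pooled within-fraction SD of log2 intensity was 1.17 for Alas1, 0.429 for Hamp and 0.397 for the brightest Tfrc probe set. These values exceeded those of 99.9%, 98.9% and 98.6% of all probe sets. The other 5 genes had SDs between 0.0462 for Fth1 and 0.124 for Slc40a1, against a median of 0.122 over all probe sets. For the brightest probe sets of these 5 genes the intervals of the ploidy difference lay between -0.29 and 0.23. Other probe sets of Cp, Slc40a1 and Hfe had intervals that reached further, up to 0.39 for Cp and from -0.35 to 0.30 for Hfe.

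**Figure D3:**
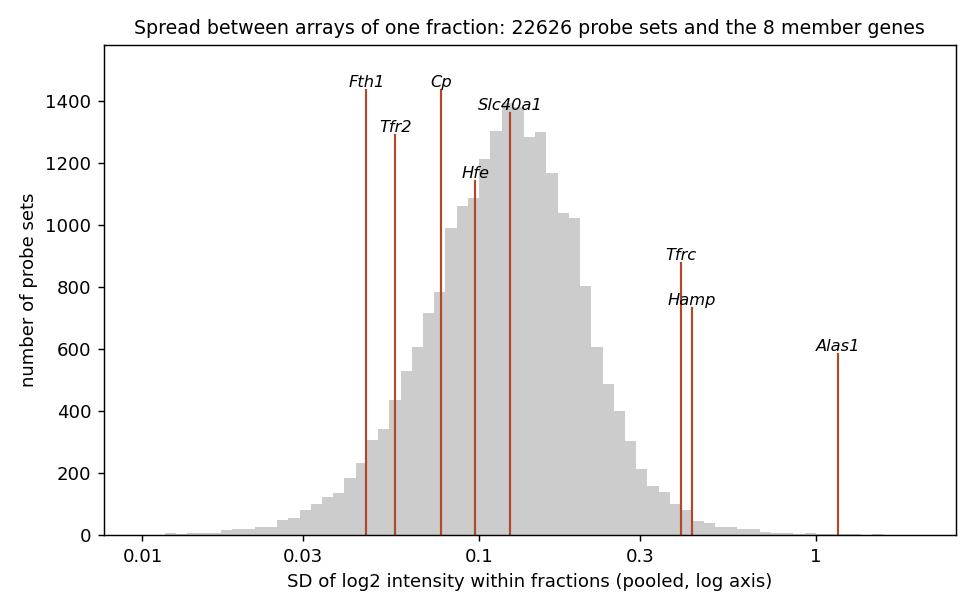
Histogram of the pooled SD of log2 intensity within fractions for 22626 probe sets, on a log axis, with lines for the brightest probe set of each member gene. Fth1, Tfr2, Cp and Hfe lie on the left of the median of 0.122, Slc40a1 beside it, and Tfrc, Hamp and Alas1 in the right tail.

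The low arrays of hepcidin were also the low arrays of several target genes of BMP signalling. The list of BMP, SMAD and IL-6 regulators of hepcidin had 26 measured genes, and 11 of them (42.3%) were lowest on tetraploid replicate 2 among tetraploid arrays and on diploid replicate 3 among diploid arrays. The same held for 18.7% of all genes, and for 23.9% of the 620 genes whose within-fraction SD exceeded that of 95% of probe sets. Among the 7 genes of the list with so high an SD it held for 5, and 1, Il6ra, was the reverse. That reverse pattern held for 15.8% of all genes and for 40% of the 620. This array pair was chosen from the Hamp values. The 11 genes lowest on it include ligands and receptors as well as targets, with Bmp6 below the dim level of 4.82. A gene was counted as lowest whatever the size of the gap. In the same list 11 of 26 genes (42.3%) were highest on both arrays numbered 1, as Hamp was, against 19.4% of all genes and 23.5% of the 620. The counts are not separate, as Bmp6, Id1, Id2, Id3, Smad6 and Smad7 are in both. The share was 5 of 12 (41.7%) among heme synthesis genes. Id1, an inhibitor of differentiation factors and a standard readout of BMP signalling, read 9.09, 8.15 and 8.17 on tetraploid and 9.24, 8.36 and 8.18 on diploid arrays. Its tetraploid replicates 2 and 3 were nearly equal, and it stood apart on the arrays numbered 1, where it was high. Smad7, which the pathway induces and which inhibits it, read 7.70, 7.10 and 7.56 on tetraploid and 7.86, 7.51 and 6.98 on diploid arrays.

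Id3, Id2 and Smad6 were named after their values were seen. Id3, another gene of the Id family, read 9.02, 6.03 and 7.59 on tetraploid and 9.05, 7.35 and 6.08 on diploid arrays, a range of 8.11-fold over the 6 arrays. Id2 read 12.00, 9.50 and 10.84 on tetraploid and 11.65, 10.94 and 9.49 on diploid arrays. Smad6, an inhibitory SMAD, read 6.09, 4.92 and 5.57 on tetraploid and 5.93, 5.84 and 4.75 on diploid arrays. In each of these 3 genes tetraploid replicate 2 and diploid replicate 3 were the low arrays. Il6ra, which encodes the interleukin-6 receptor, was named in the same way and ran opposite, at 9.09, 10.51 and 9.80 on tetraploid and 9.03, 9.74 and 10.34 on diploid arrays. Between the fractions Id1 differed by -0.12 ± 0.32, Id2 by 0.09 ± 0.67, Id3 by 0.05 ± 0.85, Smad6 by 0.02 ± 0.36, Smad7 by 0.004 ± 0.230 and Il6ra by 0.10 ± 0.39 (SE, n = 3 per fraction), with limma adjusted p-values of at least 0.962.

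Other genes outside iron biology had similar array patterns, though not always of the same size. Ranked by Pearson's r of log2 values over the 6 arrays among 9293 other genes, those most like Hamp were Lss, an enzyme of cholesterol synthesis, at 0.997, the alanyl-tRNA synthetase gene Aars at 0.996 and Tmem150a at 0.992. Those most like Tfrc were Nudt2, a nucleotide hydrolase, at 0.990, the interferon-induced gene Nmi at 0.988 and Il15ra, the receptor chain for interleukin-15, at 0.988. For Alas1, added after its spread was seen, they were Tat, the tyrosine aminotransferase induced by glucocorticoids, at 0.999, Myo1f at 0.998 and Igfbp1, the fasting-induced binding protein of insulin-like growth factors, at 0.992. An r above 0.95 was reached by 103 genes for Hamp, 52 for Tfrc and 77 for Alas1. Each r rests on the gap between a pair of arrays and the remaining 4, and describes these 6 arrays only. An r does not measure the size of that gap. Over the 6 arrays Alas1 ran from 10.06 to 12.36, but Myo1f from 5.46 to 5.72 and Igfbp1 from 14.40 to 14.70. Tfrc ran from 9.13 to 9.93 and Nudt2 from 9.88 to 10.14. The range of Lss, from 9.24 to 10.17, was closer to that of Hamp, from 12.55 to 13.52. Tat read 12.29, 13.52 and 13.41 on tetraploid and 12.58, 13.46 and 13.55 on diploid arrays.

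The 3′ over 5′ signal of the control probe sets for Gapdh, on the log2 scale, lay between -0.08 and 0.02 on tetraploid arrays and between -0.02 and 0.04 on diploid arrays. For beta-actin it was 1.56 to 1.69 on tetraploid and 1.59 to 1.71 on diploid arrays. Tetraploid replicate 2, low in Hamp, had the lowest value on both measures, while diploid replicate 3, also low in Hamp, had 0.04 and 1.69. Their part in the array patterns was not tested.

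**Figure D4:**
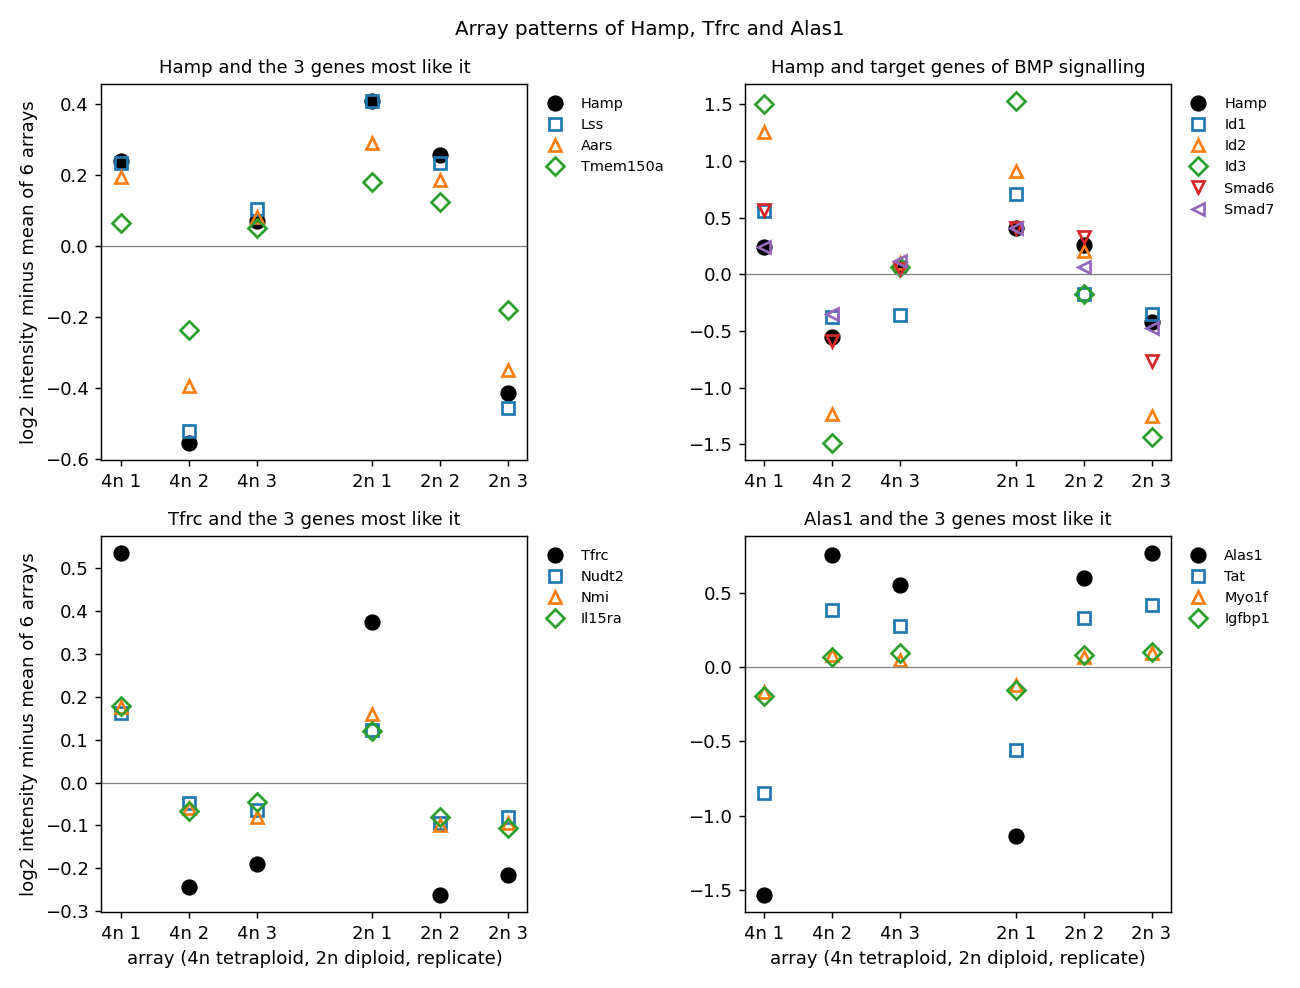
Log2 intensity on each array minus the mean of the 6 arrays, for Hamp with the 3 genes most like it, Hamp with Id1, Id2, Id3, Smad6 and Smad7, Tfrc with its 3 most like genes and Alas1 with its 3, tetraploid arrays left and diploid arrays right. Hamp is low on tetraploid replicate 2 and diploid replicate 3, Tfrc is high and Alas1 low on both arrays numbered 1.

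Other genes of iron and heme biology were taken from 5 lists. Of 103 listed genes 87 were measured, 44 with a higher and 43 with a lower mean in tetraploid cells. By limma 0 passed the adjusted threshold, with a smallest adjusted p = 0.706, and 1 gene (1.15%) had an unadjusted p under 0.05, against 5.86% of all genes. The fractions did not overlap for 4 of the 87 genes (4.60%), namely Cpox, Hpx, Hp and Slc25a28, against 11.8% of all genes.

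The steps of heme synthesis after Alas1 leaned neither way, with 6 of 12 measured genes higher and 6 lower and a median of 0.02. Cpox, the coproporphyrinogen oxidase, read 9.16, 9.14 and 9.31 on tetraploid and 8.68, 9.12 and 8.98 on diploid arrays, without overlap of the fractions. Its difference was 0.28 ± 0.12 (SE), with an adjusted p = 0.727. The matrix chaperone Clpx, which activates and degrades the Alas1 enzyme, differed by 0.15 ± 0.12. Abcb6, a porphyrin transporter, and Tmem14c, a mitochondrial carrier in heme synthesis, differed by -0.07 ± 0.08 and -0.08 ± 0.10. Alad, the second enzyme of the pathway, differed by 0.06 ± 0.12, Fech, which inserts the iron, by -0.02 ± 0.07, and Alas2, the erythroid form of the first enzyme, by 0.12 ± 0.10 (SE, n = 3 per fraction). The widest range over the 6 arrays among the 12 genes was 0.63 on the log2 scale, for Cpox, against 2.30 for Alas1.

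Heme breakdown and transport held 15 measured genes, 7 higher and 8 lower, with a median of -0.002. For Hpx and Hp, plasma scavengers of heme and hemoglobin, the fractions did not overlap, with differences that did not pass the test. Hpx, hemopexin, read 14.64, 14.62 and 14.67 on tetraploid and 14.75, 14.74 and 14.72 on diploid arrays, a difference of -0.09 ± 0.07 (SE, adjusted p = 0.854 by limma). Hp, haptoglobin, read 14.29, 14.34 and 14.31 on tetraploid and 14.40, 14.37 and 14.41 on diploid arrays, a difference of -0.08 ± 0.07 (adjusted p = 0.871). Hmox1, the inducible heme oxygenase, differed by -0.07 ± 0.11, Blvra, a biliverdin reductase, by -0.12 ± 0.09, Flvcr2 by 0.17 ± 0.10 and the scavenger receptor Lrp1 by 0.08 ± 0.08.

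The 26 measured regulators of hepcidin divided into 16 with a higher and 10 with a lower mean, and their median was 0.02. The ligand Bmp6, which in mice is the main signal of liver iron and is made by endothelial cells, had a log2 intensity of 4.73 ± 0.04 in tetraploid and 4.72 ± 0.21 in diploid cells (SD, n = 3), below the level of 4.82. Bmp2, the other endothelial ligand, differed by 0.21 ± 0.15, Bmp4 by -0.22 ± 0.17, Bmp7 by -0.16 ± 0.10 and the activin receptor Acvr2a by 0.14 ± 0.10 (SE). Of the 17 endothelial markers, 12 had a higher mean in tetraploid cells, 5 of the 17 with an unadjusted p under 0.05, against 1.84% of all genes higher at that p, and 0 past the adjusted threshold. Their part in the Bmp2 value was not tested.

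Uptake, storage and sensing genes numbered 18 measured, 10 higher and 8 lower, with a median of 0.01. The iron regulatory proteins, which bind iron-responsive elements in ferritin and Tfrc mRNA, were even, with differences of 0.08 ± 0.10 for Aco1 and 0.04 ± 0.07 for Ireb2 (SE). Slc39a14, the carrier of iron not bound to transferrin, differed by 0.006 ± 0.240. It read 9.65, 10.60 and 10.09 on tetraploid and 9.78, 10.13 and 10.41 on diploid arrays, in each fraction highest where Hamp was lowest. The same held for 15.8% of all genes. It held for 40% of the 620 genes with a within-fraction SD above that of 95% of probe sets, a level that Slc39a14 also exceeded. Lcn2, the siderophore-binding lipocalin, differed by -0.33 ± 0.31, the ferric reductase Cybrd1 by -0.24 ± 0.11, Hif1a by 0.12 ± 0.09 and the ferroxidase Heph by 0.10 ± 0.09. Cybrd1 and Heph were below the dim level.

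Mitochondrial iron and iron-sulfur genes had 5 higher and 11 lower of 16 measured, with a median of -0.05, and -0.003 over every probe set of the list. Slc25a28, mitoferrin-2, which imports iron into mitochondria, was the 1 gene with an unadjusted p under 0.05. It read 7.97, 7.84 and 7.95 on tetraploid and 8.07, 8.17 and 8.14 on diploid arrays, and the tetraploid values all lay below the diploid ones. Its difference was -0.20 ± 0.08 (SE), with a 95% interval from -0.38 to -0.02 and an adjusted p = 0.706 by limma. The assembly factors Isca1 and Nfu1 differed by -0.09 ± 0.08 and 0.11 ± 0.09, and the chaperone Hspa9 by 0.04 ± 0.08.

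**Figure D5:**
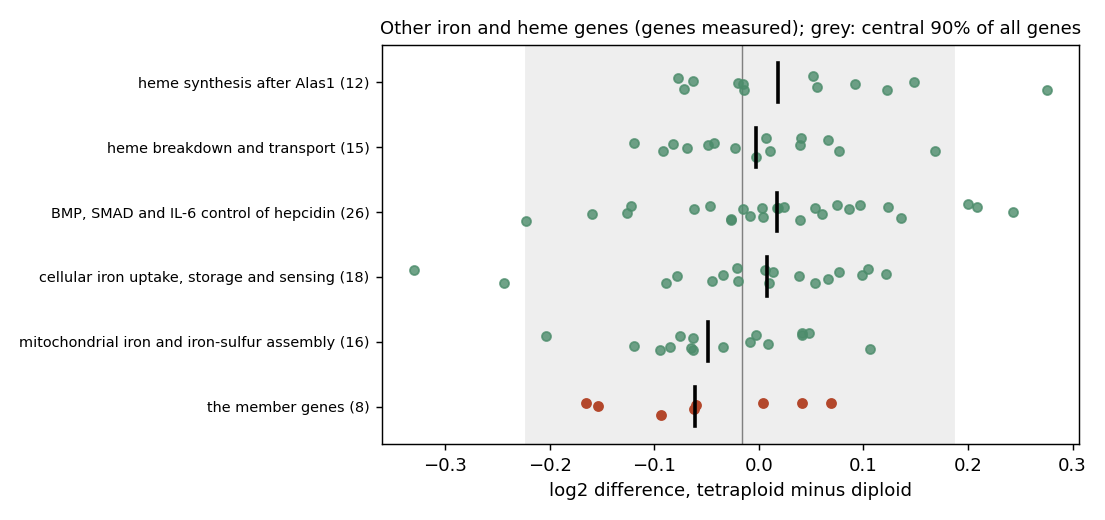
Log2 difference, tetraploid minus diploid, of each measured gene of 5 iron and heme lists and of the 8 member genes, with black bars at the medians and grey shading over the central 90% of all 12393 genes, from -0.22 to 0.19. The medians of all lists lie between -0.06 and 0.02.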

How the data were processed

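Total RNA of sorted hepatocytes was hybridised as biotin-labelled cRNA to 6 Affymetrix mouse arrays. The deposited values are 1 intensity per probe set and array, and RMA is named in the submitters' processing notes, with no version. The scale is linear, as read from the values, and the array medians lie between 86.4 and 89.2. RMA in its usual form brings arrays to 1 distribution, and a difference in total RNA per cell is not measured by such values. Levels cannot be compared between probe sets. The number of arrays limits the precision, with a median SE of 0.099 for a log2 difference.

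Intensities were converted to log2. The 22626 probe sets other than 64 controls were fitted with limma 3.58.1 in R 4.3.3 (lmFit, eBayes, two-sided, ploidy as the single factor), and p-values were adjusted by Benjamini-Hochberg with a threshold of 0.05. Differences are tetraploid minus diploid with limma's SE and 95% interval. On simulated data for this comparison, with 200 of 22626 probe sets changed 2-fold, 98.2% were recovered and 5.92% of calls were false, with noise independent between probe sets. The changed probe sets were drawn at random. The share recovered therefore does not apply to Hamp, Tfrc and Alas1, whose brightest probe sets had SEs of 0.25, 0.24 and 0.67.

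For each gene the probe set with the highest mean is described. From each list the 2 genes with the smallest p in each direction and its best known members are named, and genes named otherwise are marked. The members, lists and rules were chosen with earlier results of these data known. Of the genes to be named, Tmprss6 and Ftl1 were not analysed here, as no probe set carries them as its only symbol. Of stellate cell and fibroblast markers 13 of 14, and of lymphocyte and neutrophil markers 15 of 16, were measured, with 0 past the adjusted threshold in either list, as in the other marker lists.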

Additional observations from a re-analysis of the deposited data

How the results depend on the processing

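Across 15 alternative settings, 2 of them chosen after seeing the data, 0 of 120 values of the 8 member genes passed the adjusted threshold, with a smallest adjusted p = 0.760, and 14 had the opposite sign. Leaving out each array in turn moved the log2 difference from -0.76 to 0.57 for Alas1, -0.42 to 0.071 for Hamp, -0.18 to 0.27 for Tfrc, -0.018 to 0.086 for Cp, -0.15 to 0.010 for Slc40a1 and -0.028 to 0.032 for Tfr2, and kept it below 0 for Fth1 (-0.12 to -0.07) and Hfe (-0.12 to -0.002). The sign of Alas1 turned without tetraploid replicate 1 (0.57), diploid replicate 2 (0.11) or diploid replicate 3 (0.19), and that of Hamp without tetraploid replicate 2 (0.071). With array weights Tfr2 differed by -0.0079. Without both arrays numbered 1, Cp differed by -0.0059 and Tfr2 by -0.0055, and the median of the member genes was -0.027. Over every member probe set that median was -0.031. It ran from -0.078 to -0.0048 when single arrays were left out. With a trended, robust prior 1 member probe set, of Cp, had an unadjusted p under 0.05. Over all probe sets, leaving out single arrays gave 0 to 1 past the adjusted threshold (1 without tetraploid replicate 1). At an unadjusted limma p under 0.05 it gave 1022 (without diploid replicate 1) to 1687, against 1561 of 22626 with all arrays. With 1 probe set a gene and dim genes left out, 574 had such a p. That count is over fewer tests and cannot be set against 1561 directly. The median of the mitochondrial list was -0.0031 over every probe set.

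The fit with the replicate number as a replicate block called 10 probe sets, 0 of them members. Same-numbered arrays did not deviate together throughout, with correlations of their deviations of 0.444, -0.146 and -0.158 for numbers 1, 2 and 3. The arrays numbered 1 thus deviated together, and those numbered 2 and 3 did not. Under the block the log2 difference was -0.15 ± 0.12 for Alas1 and 0.07 ± 0.09 for Tfrc (SE). Without it the SEs were 0.67 and 0.24. Tetraploid replicates 1, 2 and 3 correlated best with diploid replicates 1 (0.444), 3 (0.559) and 2 (0.244). The labels name no such pairing, and what the 10 calls under the block mean is not settled by it.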
